A study of Mus musculus with 12 samples.

Results

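The TGF-beta pathway genes described here are 2 ligand genes (Tgfb1, Tgfb3), 3 receptor genes (Tgfbr1, Tgfbr2, Tgfbr3), 2 receptor-activated SMAD genes (Smad2, Smad3), the inhibitory SMAD gene Smad7 and 2 co-repressor genes (Ski, Skil). They were taken by gene symbol, and all 10 were found among the 56941 genes of the count table and all 10 passed the expression filter, which left 18657 genes for testing. The RNA came from intratumoral CD8+ T cells of wild type C57BL/6J mice carrying tumours of Panc02, a pancreatic cancer line of the mouse. Cells were sorted as viable (DAPI-), CD45.2+ and CD8+, and by the presence or absence of asGM1, the surface glycolipid asialo-GM1, from tumours given an isotype control antibody or an anti-PD-1 antibody. The 4 groups, isotype asGM1-negative, isotype asGM1-positive, anti-PD-1 asGM1-negative and anti-PD-1 asGM1-positive, held 3 libraries each, 12 in all. No gate on CD3 was named, no age was given, and the labels do not say whether libraries came from separate or pooled mice, so the p-values rest on library-to-library spread, part of which may be technical.

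TGF-beta is secreted in a latent form and, once released, binds the receptor TGFBR2, which recruits and phosphorylates TGFBR1. TGFBR1 then phosphorylates SMAD2 and SMAD3, which pair with SMAD4 and act on genes in the nucleus, while SMAD7 blocks the receptor and SKI and SKIL hold the SMADs in a repressed state. In T cells of tumours and mucosa the pathway is known for inducing the integrin CD103 (Itgae) and for restraining effector genes.

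Levels are given as CPM (counts per 1 M counts of the library, scaled by edgeR's TMM factors) for replicates 1, 2 and 3 in that order. CPM does not account for gene length, so levels are not compared between genes. Changes are on the log2 scale with their standard error (SE), and each adjusted p is from edgeR's quasi-likelihood test with Benjamini-Hochberg adjustment over all 18657 genes unless another tool is named, with a threshold of 0.05. Library totals ran from 58.1 to 73.2 M counts (M, mega), so that the mean allowed by a count of 0 (3 counts at 95% confidence, counting error only) lay between 0.0406 and 0.0524 CPM. The 6 CD8 T cell markers (Cd8a, Cd8b1, Cd3d, Cd3e, Cd3g, Trac) summed to 9207 to 9907 CPM in isotype asGM1-negative, 9892 to 11317 CPM in isotype asGM1-positive, 8378 to 9742 CPM in anti-PD-1 asGM1-negative and 7676 to 8989 CPM in anti-PD-1 asGM1-positive libraries, and none was at 0. In asGM1-positive cells and on average, Cd8a and Cd3g of the 6 fell under anti-PD-1 by edgeR's test.

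Some libraries stood apart, and markers of other cells differed between the groups. Hspa1a, a heat shock chaperone, was at 151 and 146 CPM in the replicate 2 libraries of the anti-PD-1 asGM1-negative and asGM1-positive groups, against 22.5 to 32.6 CPM in the other 4 anti-PD-1 libraries and 188 to 440 CPM in the isotype libraries. The summed level of 12 macrophage markers was 73.6 to 86.1 CPM in isotype asGM1-negative, 219 to 317 CPM in isotype asGM1-positive, 79.8 to 120 CPM in anti-PD-1 asGM1-negative and 187 to 324 CPM in anti-PD-1 asGM1-positive libraries. For 7 naive and recirculating T cell markers the sums were 314 to 443, 109 to 120, 452 to 505 and 227 to 267 CPM in the same order of groups. For 8 regulatory and CD4 T cell markers they were 805 to 1075, 584 to 854, 1603 to 1643 and 1283 to 1467 CPM. For 8 NK cell markers the sums were 208 to 388, 442 to 715, 208 to 307 and 201 to 397 CPM, with Khdc1a at 0 in all 12 libraries and Klra8 at 0 in the isotype libraries. Plasmacytoid dendritic cell markers, 12 genes, summed to 895 to 1116, 755 to 806, 822 to 934 and 750 to 954 CPM, but Cd300c and Spib were at 0 in every asGM1-positive library and Siglech was at 25.1 to 71.3 CPM in asGM1-negative and 0 to 0.489 CPM in asGM1-positive libraries. Whether these cells or libraries had a part in the results below was not tested. In bulk RNA, fewer cells of a type cannot be told apart from less RNA per cell.

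Smad3, which differed between the populations in every pair, and Tgfbr2, which rose under treatment, are shown first by their promoters. RefSeq windows of build GRCm38.p6 matched 5 of the 10 genes by symbol (Ski, Smad3, Tgfb1, Tgfbr1, Tgfbr2); the counts were made on mm39, so the windows place the genes and carry no measurement. The 250 bases upstream of the annotated start are printed 5′ to 3′ on the gene's strand, which is the minus strand for both. CAGAC or its reverse complement GTCTG, a motif that SMAD proteins recognise, is in capitals. Shorter forms of this motif were not searched. Smad3 lies at chr9:63757995-63758244 and Tgfbr2 at chr9:116175364-116175613.
Smad3: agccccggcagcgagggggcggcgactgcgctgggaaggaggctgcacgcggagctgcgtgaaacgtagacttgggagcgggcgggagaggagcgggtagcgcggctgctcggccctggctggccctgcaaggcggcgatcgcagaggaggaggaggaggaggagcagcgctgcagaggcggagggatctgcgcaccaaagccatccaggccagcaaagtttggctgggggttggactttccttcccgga
Tgfbr2: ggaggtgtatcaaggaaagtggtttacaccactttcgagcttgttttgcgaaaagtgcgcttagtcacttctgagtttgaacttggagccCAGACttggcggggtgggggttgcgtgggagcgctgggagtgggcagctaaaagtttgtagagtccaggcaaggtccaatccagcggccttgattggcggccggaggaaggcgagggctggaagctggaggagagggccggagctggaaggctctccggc
The Tgfbr2 window held 1 CAGAC and the Smad3 window none. Of 32851 windows of the same length, searched on both strands, 42.19% held CAGAC, 9.59% held GGCGCC and 0.17% held the palindrome GTCTAGAC, whose letters hold none of the other motifs. Neither GGCGCC nor GTCTAGAC was in either window. G and C made up 69.2% of the Smad3 window and 58.4% of the Tgfbr2 window.

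The first question was how asGM1-positive cells differ from asGM1-negative cells. Smad3 was lower in asGM1-positive cells in both treatments, a difference that did not pass edgeR's test in the plain fit of the 4 groups and passed with same-numbered libraries as pairs, and the other 9 genes passed in neither fit. The labels do not state that same-numbered libraries belong together. Here and below the pairs were inferred from these same counts, in which such libraries deviated together (r = 0.121 to 0.298). None of the 10 genes passed the plain test under isotype, where 1.3% of all tested genes did, under anti-PD-1 (1.6%), or in the average of both treatments (3.63%). Their median difference in that average was -0.01 log2, with a median size of 0.15 against 0.18 over all tested genes. Groups did not overlap for 2 of 10 genes under isotype (Tgfb3, Smad3), where 16.3% of all genes did not overlap, and for 3 of 10 under anti-PD-1 (Tgfbr1, Smad3, Smad7), against 19.7%.

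Smad3, a receptor-activated SMAD, was at 10.3, 8.07 and 8.30 CPM in isotype asGM1-negative libraries and at 7.72, 1.49 and 4.31 CPM in their asGM1-positive counterparts. Under anti-PD-1 it was at 7.03, 11.6 and 10.4 CPM without asGM1 and 4.85, 5.71 and 5.98 CPM with it. Within each treatment the asGM1-positive libraries all lay below the asGM1-negative ones, and the lowest value of all was that of isotype asGM1-positive replicate 2. Group means were 8.88 ± 1.21 and 4.51 ± 3.12 CPM under isotype and 9.68 ± 2.37 and 5.51 ± 0.589 CPM under anti-PD-1 (SD, n = 3 each). The difference was -0.98 ± 0.43 log2 under isotype (edgeR adjusted p = 0.369), -0.81 ± 0.43 under anti-PD-1 (adjusted p = 0.535) and -0.90 ± 0.30 averaged (adjusted p = 0.15). With same-numbered libraries of a treatment as pairs, the averaged difference was -1.01 ± 0.24 (edgeR adjusted p = 0.0379), and 8.91% of all genes passed in that fit. In the same fit 4.05% of genes passed under isotype and 4.98% under anti-PD-1, with none of the 10 among them. Smad3 was lower in the asGM1-positive library of 6 of 6 pairs, by 0.41 to 2.42 on the log2 scale, and 6.77% of all genes were lower in 6 of 6. Without isotype asGM1-positive replicate 1, the highest of its group, the unblocked difference was -1.22 (edgeR adjusted p = 0.0271), and DESeq2 gave -0.90 (adjusted p = 0.0426) with 7.61% of genes passing. Without both anti-PD-1 replicate 2 libraries it was -0.85 (edgeR adjusted p = 0.413). The macrophage and naive T cell marker sums given above differed between the same groups, and their part in the Smad3 difference was not tested.

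Smad2, the other receptor-activated SMAD, ranged from 59.6 to 74.9 CPM over the 12 libraries. Its averaged difference was 0.06 ± 0.07 log2 (edgeR adjusted p = 0.74), with group means of 64.5 ± 3.81 and 70.2 ± 4.86 CPM under isotype and 63.3 ± 5.66 and 63.2 ± 3.76 CPM under anti-PD-1 (asGM1-negative first). Smad7, the inhibitory SMAD, was lower in the asGM1-positive library in 6 of 6 pairs as well, but by only 0.028 to 0.394 on the log2 scale. Its averaged difference was -0.22 ± 0.11 (edgeR adjusted p = 0.35), and it did not pass with the pair block either.

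**Figure D1:**
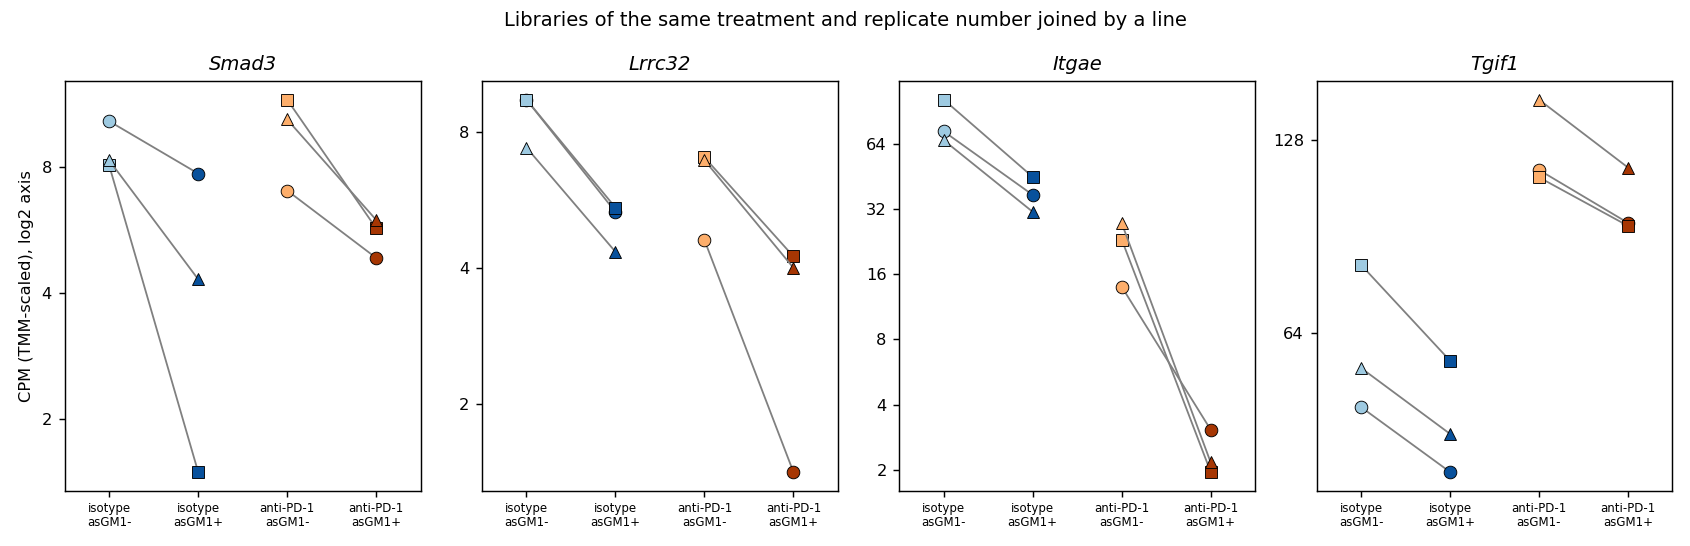
Level (CPM, log axis) of Smad3, Lrrc32, Itgae and Tgif1 by group (x axis); each line joins the asGM1-negative to the asGM1-positive library of the same treatment and number, and circles, squares and triangles are replicates 1, 2 and 3. All 4 genes were lower in the asGM1-positive library of 6 of 6 pairs, as were 6.77% of all genes. Other pathway genes, such as Dab2 and Inhbb, were higher in 6 of 6 pairs.

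Among the ligands, Tgfb3 was the gene with the widest range. It was at 0.190, 0.990 and 0.379 CPM in isotype asGM1-negative libraries (12, 60 and 28 counts) and at 1.45, 1.10 and 1.47 CPM in the isotype libraries of asGM1-positive cells. Under anti-PD-1 the values were 1.68, 1.70 and 1.67 CPM for asGM1-negative cells and 1.73, 2.58 and 0.936 CPM for asGM1-positive cells. The isotype asGM1-negative group alone lay below 1 CPM throughout, and under anti-PD-1 the populations overlapped. The asGM1-positive minus asGM1-negative difference was 1.36 ± 0.52 log2 under isotype (edgeR adjusted p = 0.294) and 0.05 ± 0.51 under anti-PD-1 (adjusted p = 0.99), and the test of the difference between these gave -1.31 ± 0.73 (adjusted p = 0.793). Tgfb1, the ligand gene that T cells and regulatory T cells mainly transcribe, had group means of 94.5 ± 3.74 and 96.8 ± 20.1 CPM under isotype and 105 ± 7.16 and 111 ± 11.2 CPM under anti-PD-1. Its libraries ranged from 76.8 to 122 CPM, the populations overlapped within each treatment, and its averaged population difference was 0.06 ± 0.10 log2 (edgeR adjusted p = 0.812).

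No receptor gene passed between the populations. Tgfbr2, which binds the ligand first, differed by 0.15 ± 0.09 log2 on average (asGM1-positive minus asGM1-negative, edgeR adjusted p = 0.459), and Tgfbr3, the co-receptor betaglycan that presents ligand, was at -0.15 ± 0.16 (adjusted p = 0.729). Tgfbr1, the signalling kinase of the receptor pair, was at 10.1, 11.8 and 10.4 CPM in anti-PD-1 asGM1-negative and 7.99, 7.39 and 7.37 CPM in anti-PD-1 asGM1-positive libraries. Those groups did not overlap, while the difference of -0.51 ± 0.46 log2 did not pass (edgeR adjusted p = 0.813). The isotype libraries of Tgfbr1 were spread more widely, at 14, 2.79 and 15.8 CPM for asGM1-negative cells and 8.0, 11.5 and 15.7 CPM for asGM1-positive cells, with isotype asGM1-negative replicate 2 (169 counts) far below the rest. The co-repressors Ski and Skil differed by -0.03 ± 0.07 and 0.02 ± 0.13 log2 on average (adjusted p = 0.897 and 0.971).

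**Figure D2:**
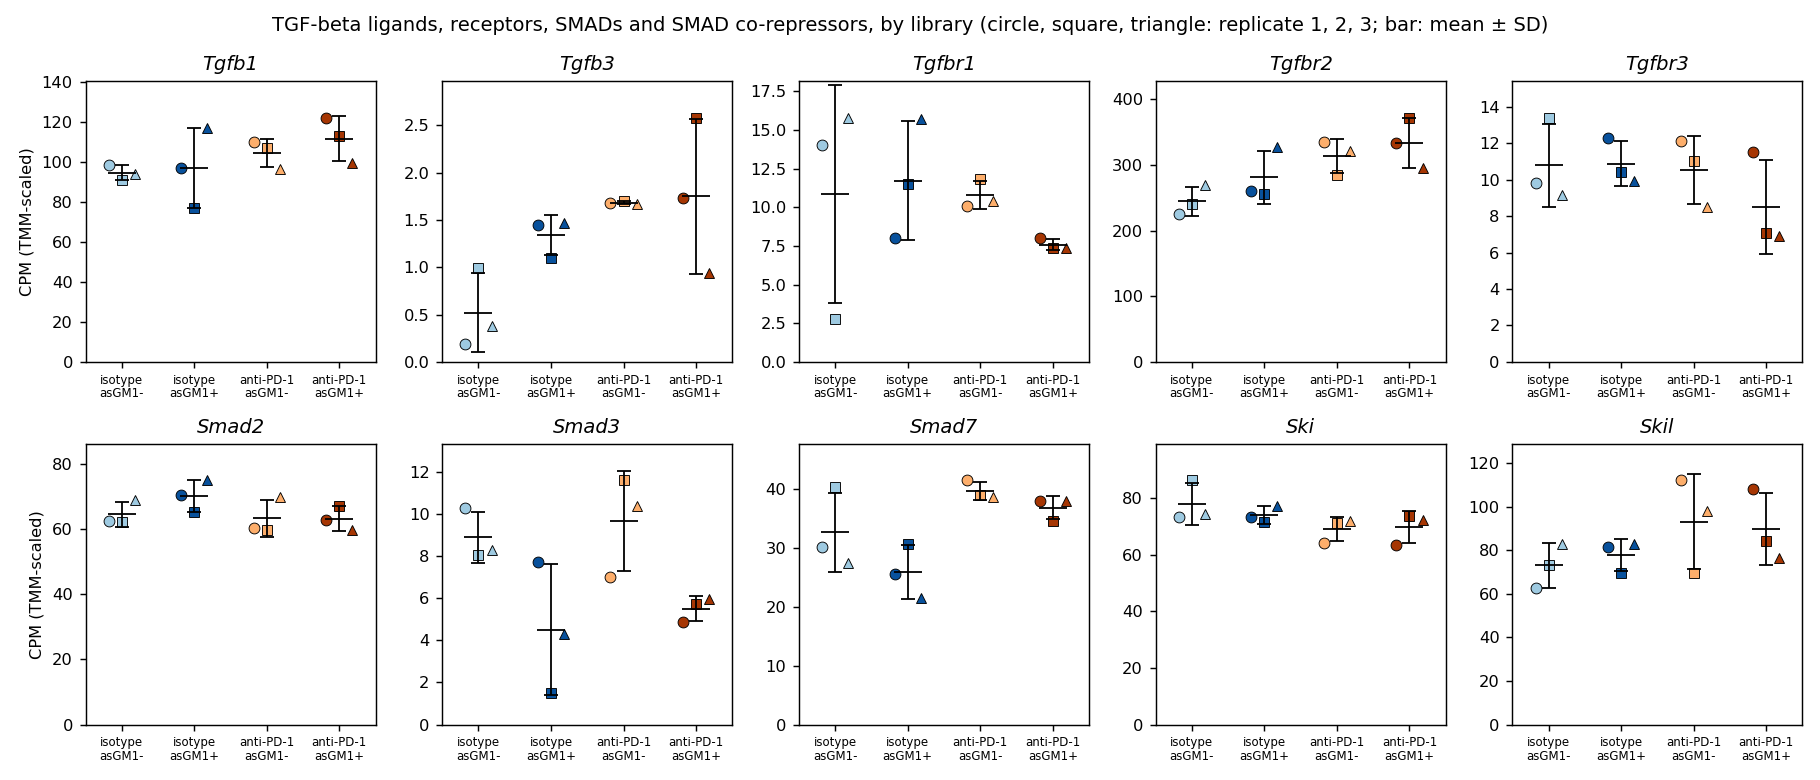
Level (CPM) of each of the 10 genes in the 12 libraries, 1 panel per gene with its own axis; circles, squares and triangles are replicates 1, 2 and 3, and bars are the group mean ± SD. Smad3 sits lower in both asGM1-positive groups, Tgfb3 is lowest in the isotype asGM1-negative group, and Tgfbr2 and Smad7 sit higher under anti-PD-1.

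The second question was how these genes respond to PD-1 blockade. Tgfbr2 and Smad7 rose under anti-PD-1 when both populations were averaged, and no gene of the 10 fell. These 2 of 10 genes (20%) stood against 18.3% of all tested genes in either direction and 9.22% higher, so their share was close to the background. Separately, none of the 10 passed in asGM1-negative cells, where 8.75% of genes did, or in asGM1-positive cells (6.83%). The median change was 0.14, 0.20 and 0.19 log2 in asGM1-negative cells, asGM1-positive cells and their average. Groups did not overlap for 3 of 10 genes in asGM1-negative cells (Tgfb3, Tgfbr2, Ski), against 30.3% of all genes, and for 2 of 10 in asGM1-positive cells (Tgfbr1, Smad7), against 24%. The comparisons within a treatment and within a population share libraries and are not independent of each other.

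Tgfbr2 was at 225, 240 and 269 CPM in isotype asGM1-negative and 260, 256 and 328 CPM in isotype asGM1-positive libraries. Under anti-PD-1 it was at 335, 285 and 321 CPM for asGM1-negative cells and 333, 372 and 296 CPM for asGM1-positive cells. The asGM1-negative groups did not overlap, and among asGM1-positive libraries isotype replicate 3 lay above anti-PD-1 replicate 3. The averaged rise was 0.30 ± 0.09 log2, or 1.23-fold (edgeR adjusted p = 0.0326), made up of 0.36 ± 0.12 in asGM1-negative (adjusted p = 0.101) and 0.25 ± 0.12 in asGM1-positive cells (adjusted p = 0.285). The call ended when any 1 of 8 libraries was left out (edgeR adjusted p = 0.0647 to 0.0853): isotype asGM1-negative replicates 1 and 2, isotype asGM1-positive replicates 1 and 2, anti-PD-1 asGM1-negative replicates 1 and 3, and anti-PD-1 asGM1-positive replicates 1 and 2. Without both anti-PD-1 replicate 2 libraries, which stood apart in Hspa1a, the rise was 0.29 (adjusted p = 0.0769).

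Smad7, whose own transcription is a known feedback response to TGF-beta, was at 30.1, 40.2 and 27.4 CPM in isotype asGM1-negative and 25.5, 30.6 and 21.4 CPM in isotype asGM1-positive libraries. Under anti-PD-1 it was at 41.4, 39.0 and 38.6 CPM for asGM1-negative cells and 37.9, 34.5 and 37.9 CPM for asGM1-positive cells. The asGM1-positive groups did not overlap, and isotype asGM1-negative replicate 2 was the isotype library within the anti-PD-1 range. The averaged rise was 0.40 ± 0.11 log2, or 1.32-fold (edgeR adjusted p = 0.0266). It was 0.28 ± 0.16 in asGM1-negative (adjusted p = 0.308) and 0.51 ± 0.16 in asGM1-positive cells (adjusted p = 0.0756), where DESeq2 gave an adjusted p of 0.0239 with 12.1% of genes passing, and edgeR 0.044 without isotype asGM1-negative replicate 2 and 0.0431 without isotype asGM1-positive replicate 2. The averaged call ended when any 1 of 6 libraries was left out (edgeR adjusted p = 0.0514 to 0.0682): isotype asGM1-negative replicates 1 and 3, isotype asGM1-positive replicate 1, anti-PD-1 asGM1-negative replicates 1 and 3, and anti-PD-1 asGM1-positive replicate 1. Without both anti-PD-1 replicate 2 libraries the rise was 0.42 (adjusted p = 0.0753). Summed regulatory and CD4 T cell markers were higher in every anti-PD-1 library than in any isotype library, as given above. The 8 markers did not all move the same way. Ctla4 alone of them passed edgeR's test on average (12.5%, against 18.3% of all tested genes) and in each population. In asGM1-negative cells 3 of 8 had a change above 0, with a median of -0.12 log2, and in asGM1-positive cells 7 of 8, with a median of 0.45. The part of these markers in the rises of Tgfbr2 and Smad7 was not tested.

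Tgfb3 had a larger fitted change that did not pass. It was 1.70 ± 0.53 log2 in asGM1-negative cells (edgeR adjusted p = 0.0696) and 1.04 ± 0.37 averaged (adjusted p = 0.069). Without isotype asGM1-negative replicate 2, the highest of its group, these became 2.55 (adjusted p = 0.014) and 1.47 (adjusted p = 0.00942). The averaged change also passed without anti-PD-1 asGM1-positive replicate 3 (1.19, adjusted p = 0.0414), and was 0.84 (adjusted p = 0.23) without both anti-PD-1 replicate 2 libraries. DESeq2 passed both (adjusted p = 0.0167 and 0.0329, with 14.8% and 23.8% of genes passing), and so did limma voom (0.0412 and 0.0368, with 9.12% and 18.6%). Tgfb1 changed by 0.18 ± 0.10 log2 (edgeR adjusted p = 0.242).

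The other receptors and the co-repressors did not pass. Tgfbr1 in asGM1-positive cells went from 8.0 to 15.7 CPM under isotype to 7.37 to 7.99 CPM under anti-PD-1, groups that did not overlap, with a change of -0.63 ± 0.46 log2 (edgeR adjusted p = 0.491). Averaged over populations Tgfbr1 was at -0.32 ± 0.33 (adjusted p = 0.548), and it fell only without isotype asGM1-negative replicate 2 (-0.55, adjusted p = 0.0418). Tgfbr3 ranged from 6.93 to 13.4 CPM with an averaged change of -0.20 ± 0.16 (adjusted p = 0.456). Smad2 and Smad3 were at -0.09 ± 0.07 and 0.21 ± 0.30 (adjusted p = 0.407 and 0.687).

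Ski, a co-repressor of the SMADs, was at 73.2, 86.3 and 74.3 CPM in isotype asGM1-negative and at 64.2, 71.2 and 71.8 CPM in anti-PD-1 asGM1-negative libraries. These groups did not overlap, while its averaged change of -0.13 ± 0.07 log2 did not pass (edgeR adjusted p = 0.222). Its relative Skil ranged from 62.6 to 82.9 CPM under isotype and from 69.4 to 112 CPM under anti-PD-1. Its averaged change was 0.28 ± 0.13 (adjusted p = 0.163), and 0.36 (adjusted p = 0.0487) without anti-PD-1 asGM1-negative replicate 2. The test of a different response of the populations passed for none of the 10 genes, nor for any of the 18657, of which 1341 had an unadjusted p under 0.05 (DESeq2 passed 136 genes, limma voom 0, edgeR with the pair block 13, or 0.0697%, none of them among the 10).

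**Figure D3:**
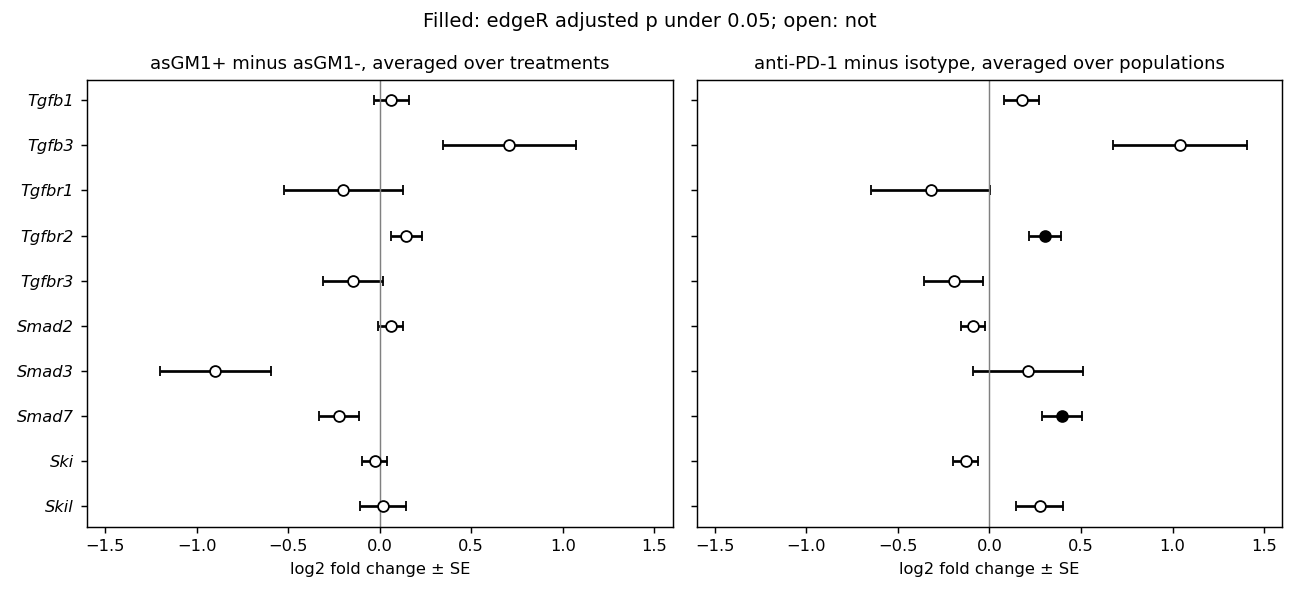
Log2 difference ± SE (x axis) for each of the 10 genes, asGM1-positive minus asGM1-negative averaged over treatments on the left and anti-PD-1 minus isotype averaged over populations on the right; filled points passed edgeR's test. Smad3 is the lowest of the population differences and Tgfb3 the highest of the treatment changes, both with SEs wider than those of Tgfbr2 and Smad7.

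Of 55 further genes of the pathway, 47 passed the expression filter; Tgfb2, Ltbp2, Itgb6, Acvr1c, Bmpr1b, Smad6, Smad9 and Foxh1 did not. Averaged over populations, 6 of the 47 rose and 4 fell under anti-PD-1 (21.3%, against 18.3% of all genes), and the median change was -0.01 log2. In asGM1-negative cells Furin and Tgif1 rose and Pmepa1 fell (edgeR adjusted p = 0.0172, 0.0106 and 0.0304), and in asGM1-positive cells Tgif1 and Tgfbrap1 rose and Ldlrad4 fell (0.00699, 0.0297 and 0.00425). These calls were 6.38% of the 47 in each population, below the 8.75% of all genes in asGM1-negative and 6.83% in asGM1-positive cells. In asGM1-negative cells the call of Furin ended without isotype replicate 1 or anti-PD-1 replicates 2 or 3 (adjusted p = 0.0624 to 0.076), that of Pmepa1 without isotype replicate 1 or any 1 of the 3 anti-PD-1 libraries (0.0534 to 0.114), and that of Tgif1 without anti-PD-1 replicate 3 (0.0508). In asGM1-positive cells the call of Tgfbrap1 ended without isotype replicates 1 or 3, anti-PD-1 replicates 1 or 2, or anti-PD-1 asGM1-negative replicate 3 (0.0514 to 0.112). Between the populations Dab2 rose and Acvr2a fell on average (4.26% of the 47, against 3.63% of all genes), 1 gene (Dab2) rose under isotype (2.13%, against 1.3%) and none passed under anti-PD-1 (against 1.6%). The isotype call of Dab2 (edgeR adjusted p = 0.0203) ended without asGM1-negative replicates 1 or 3 or asGM1-positive replicate 3 (0.0618 to 0.104).

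Smad4, Tgif1 and Furin rose under anti-PD-1. Smad4, which joins SMAD2 and SMAD3, was at 65.8, 72.8 and 82.8 CPM in isotype asGM1-negative, 63.5, 73.3 and 69.4 CPM in isotype asGM1-positive, 109, 87.5 and 103 CPM in anti-PD-1 asGM1-negative and 105, 101 and 77.4 CPM in anti-PD-1 asGM1-positive libraries. The last of these was the only anti-PD-1 library below an isotype one. Smad4 rose by 0.45 ± 0.10 log2 (edgeR adjusted p = 0.00715). Tgif1, a homeodomain co-repressor of SMADs, was at 49.1, 81.8 and 56.5 CPM in isotype asGM1-negative and 38.9, 58 and 44.6 CPM in isotype asGM1-positive libraries. Under anti-PD-1 it was at 115, 112 and 148 CPM and at 95.1, 94.1 and 116 CPM. No anti-PD-1 library of Tgif1 lay as low as any isotype library, and the averaged rise was 1.05 ± 0.14 log2 (edgeR adjusted p = 0.000486).

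Tgif1 was also lower in asGM1-positive libraries in 6 of 6 pairs, by 0.255 to 0.496 on the log2 scale. With the pair block that difference was -0.39 ± 0.07 under isotype, -0.29 ± 0.07 under anti-PD-1 and -0.34 ± 0.05 averaged (edgeR adjusted p = 0.0194, 0.0455 and 0.00383), and without the block -0.35 averaged (adjusted p = 0.236). Furin, the protease that cleaves the TGF-beta precursor, was at 53.7 to 63.1 CPM in isotype asGM1-negative, 56.1 to 80.8 CPM in isotype asGM1-positive, 80.6 to 111 CPM in anti-PD-1 asGM1-negative and 80.0 to 104 CPM in anti-PD-1 asGM1-positive libraries. It rose by 0.62 ± 0.12 log2 averaged (edgeR adjusted p = 0.00439). The averaged calls of Smad4, Tgif1 and Furin held without each library in turn and without both anti-PD-1 replicate 2 libraries.

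The remaining 3 rises ended when certain single libraries were left out. Ltbp3, a latent TGF-beta binding protein, rose by 0.98 ± 0.27 log2 (edgeR adjusted p = 0.0263), a call that ended without isotype asGM1-negative replicate 1, isotype asGM1-positive replicates 1 and 2, anti-PD-1 asGM1-negative replicates 1 and 2, or anti-PD-1 asGM1-positive replicate 1 (adjusted p = 0.0512 to 0.0732). Tgfbrap1, a receptor-associated protein, rose by 0.47 ± 0.12 (adjusted p = 0.0216), which ended without isotype asGM1-negative replicate 2 or anti-PD-1 asGM1-positive replicate 1 (adjusted p = 0.0535 and 0.0584). Fkbp1a, which binds the type I receptor, rose by 0.21 ± 0.06 (adjusted p = 0.0376), a call kept without isotype asGM1-negative replicate 3 or isotype asGM1-positive replicates 1 or 3 and ended without each of the other 9 libraries (adjusted p = 0.0529 to 0.0855), and 0.0677 with no expression filter. Without both anti-PD-1 replicate 2 libraries the adjusted p was 0.0852, 0.0947 and 0.129 for Ltbp3, Tgfbrap1 and Fkbp1a.

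Pmepa1 and Ldlrad4, related membrane proteins that TGF-beta induces and that restrain SMAD activation, both fell. Pmepa1 was at 87.8, 58.7 and 60.4 CPM in isotype asGM1-negative and 64.6, 52.3 and 52.5 CPM in isotype asGM1-positive libraries. Under anti-PD-1 it was at 43.4, 49.4 and 43.7 CPM and at 42.1, 43.4 and 46.8 CPM. Every anti-PD-1 library lay below every isotype library, as it did for 7.48% of all genes in either direction, and the averaged change was -0.48 ± 0.11 log2 (edgeR adjusted p = 0.00914).

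Ldlrad4 was at 22.1, 32.3 and 20.1 CPM in isotype asGM1-negative and 31.7, 49.2 and 27.2 CPM in isotype asGM1-positive libraries. Under anti-PD-1 it was at 18.0, 18.3 and 17.5 CPM and at 15.3, 14.3 and 14.2 CPM. The anti-PD-1 libraries again lay below every isotype library. Ldlrad4 fell by 0.89 ± 0.15 log2 averaged (edgeR adjusted p = 0.00212) and by 1.30 ± 0.22 in asGM1-positive cells (adjusted p = 0.00425), against -0.47 ± 0.22 in asGM1-negative cells (adjusted p = 0.219). The difference between these responses was -0.83 ± 0.30 (adjusted p = 0.574). Under isotype the asGM1-positive library was the higher of each pair, with 0.52 ± 0.09 in the pair block (edgeR adjusted p = 0.0194) and 0.54 without it (adjusted p = 0.315). The averaged falls of Pmepa1 and Ldlrad4 held without each library in turn and without both anti-PD-1 replicate 2 libraries.

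Activin-side genes were low. Acvr1b, an activin type I receptor, was at 1.16 to 4.18 CPM under isotype and 0.662 to 1.56 CPM under anti-PD-1, a fall of 1.21 ± 0.33 log2 (edgeR adjusted p = 0.0235). That call ended without isotype asGM1-negative replicates 1 and 2, isotype asGM1-positive replicate 2, anti-PD-1 asGM1-negative replicates 1 and 3, or anti-PD-1 asGM1-positive replicates 1 and 2, each left out singly (adjusted p = 0.0551 to 0.0627), and without both anti-PD-1 replicate 2 libraries (adjusted p = 0.0847). Inhbb, an activin subunit, was at 3.56, 1.92 and 0.916 CPM in the isotype libraries of asGM1-positive cells and at 0 to 0.389 CPM in the other 9. It passed in the averaged treatment contrast (edgeR adjusted p = 0.0151, and 0.0619 without both anti-PD-1 replicate 2 libraries), and with the pair block also between the populations (adjusted p = 0.0117 averaged, 0.0525 without the block). Acvr2a, an activin type II receptor, was at 1.30 to 2.88 CPM in asGM1-negative and 0.499 to 1.31 CPM in asGM1-positive libraries, a difference of -1.30 ± 0.29 log2 averaged (edgeR adjusted p = 0.0271). Without isotype asGM1-negative replicate 1, isotype asGM1-positive replicate 1, anti-PD-1 asGM1-negative replicate 2, or anti-PD-1 asGM1-positive replicates 1 or 2 the adjusted p was 0.0572 to 0.0772, and without both anti-PD-1 replicate 2 libraries it was 0.16.

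Dab2, an endocytic adaptor that binds TGF-beta receptors and is also known from macrophages, was at 0.352 to 0.858 CPM in asGM1-negative and 1.66 to 4.34 CPM in asGM1-positive libraries. It rose by 2.0 ± 0.30 log2 averaged (edgeR adjusted p = 0.00347). The macrophage marker sum given above was likewise higher in every asGM1-positive library than in any asGM1-negative one, and its part in the Dab2 difference was not tested. Lrrc32 (GARP), which docks latent TGF-beta on regulatory T cells, was at 9.44, 9.44 and 7.39 CPM in isotype asGM1-negative, 5.32, 5.44 and 4.34 CPM in isotype asGM1-positive, 4.61, 7.03 and 6.93 CPM in anti-PD-1 asGM1-negative and 1.41, 4.24 and 4.0 CPM in anti-PD-1 asGM1-positive libraries. In each treatment the asGM1-positive libraries all lay lower. With the pair block the difference was -0.93 ± 0.15 log2 (edgeR adjusted p = 0.00822), against -0.87 ± 0.24 without it (adjusted p = 0.0745), and 0.0447 without anti-PD-1 asGM1-positive replicate 1. Foxp3, the defining factor of regulatory T cells, was at 16.5 to 59.3 CPM in asGM1-negative and 1.91 to 7.13 CPM in asGM1-positive libraries, and its part in the Lrrc32 difference was not tested.

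**Figure D4:**
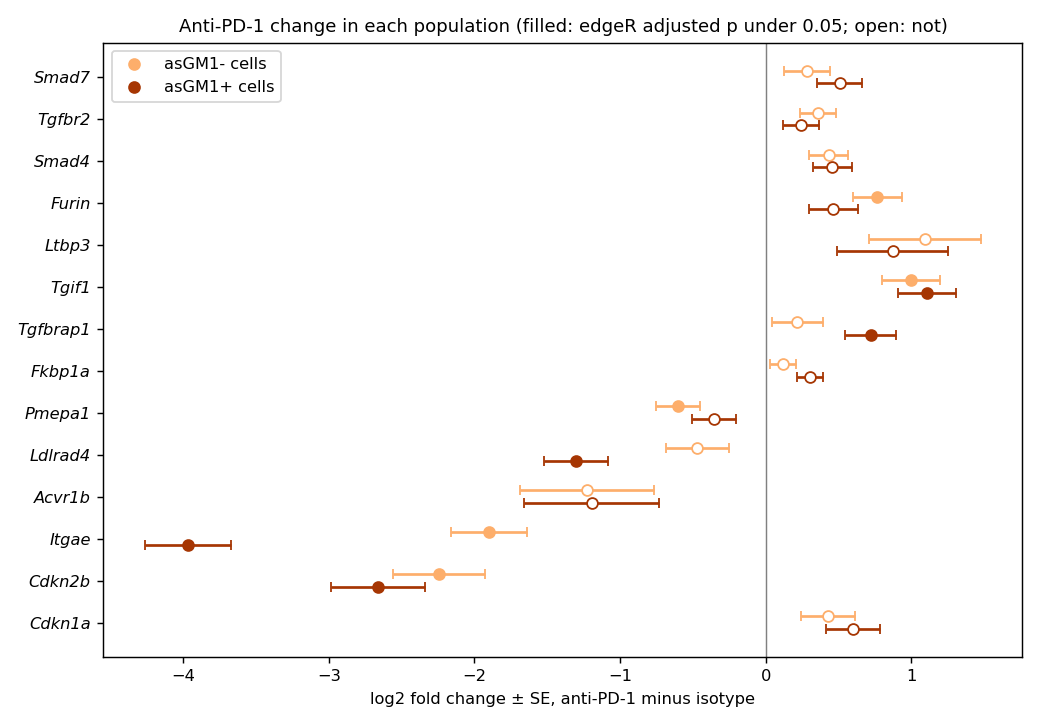
Log2 change under anti-PD-1 with its SE in asGM1-negative and asGM1-positive cells for Smad7, Tgfbr2, 9 further pathway genes and 3 genes known to respond to TGF-beta; filled points passed edgeR's test. Tgif1, Furin and Smad4 lie above 0 in both populations, and Pmepa1, Ldlrad4, Cdkn2b and Itgae lie below 0 in both.

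Genes known to respond to TGF-beta were counted last, in lists of induced and repressed genes chosen with earlier results of these data known. Their shares beside those of all genes are therefore a description and not a test. Of 7 tested genes that it is known to induce, under anti-PD-1, averaged, 4 fell (Itgae, Cdkn2b, Pmepa1, Ldlrad4) and 1 rose (Cdkn1a), 71.4% against 18.3% of all tested genes, with a median of -0.83 log2. Smad7, which TGF-beta also induces and which rose, is counted among the 10 genes above and not in this list. Pmepa1 and Ldlrad4 are counted both here and among the further pathway genes above. Itgae, which encodes CD103, was at 72.8, 102 and 66.3 CPM in isotype asGM1-negative and 37.1, 44.9 and 31.0 CPM in isotype asGM1-positive libraries, and under anti-PD-1 at 14, 23.1 and 27.5 CPM and at 3.07, 1.96 and 2.17 CPM. The groups followed each other with no overlap, isotype asGM1-negative the highest and anti-PD-1 asGM1-positive the lowest. Itgae fell by 1.90 ± 0.26 log2 in asGM1-negative and by 3.97 ± 0.29 where cells were asGM1-positive (edgeR adjusted p = 0.0015 and 2.53e-05), and the difference between the responses did not pass (-2.07 ± 0.37, adjusted p = 0.269; DESeq2 0.000119, with 0.729% of genes passing). Under isotype its population difference was -1.10 ± 0.26 (adjusted p = 0.0669), or -1.09 with the pair block (adjusted p = 0.0407), and the unblocked adjusted p was 0.0381 without anti-PD-1 asGM1-negative replicate 1.

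Cdkn2b, a cell cycle inhibitor gene, was at 14.2, 11 and 9.74 CPM in isotype asGM1-negative and 19.7, 11.3 and 17.9 CPM in isotype asGM1-positive libraries, and at 1.44 to 3.56 CPM in all 6 anti-PD-1 libraries. It fell by 2.24 ± 0.32 log2 in asGM1-negative and by 2.66 ± 0.32 where cells were asGM1-positive (edgeR adjusted p = 0.00164 and 0.000524). Cdkn1a, the related p21 gene, rose by 0.52 ± 0.13 averaged (adjusted p = 0.018), which was lost when anti-PD-1 asGM1-positive replicate 1 was left out (adjusted p = 0.0521) or both anti-PD-1 replicate 2 libraries (0.0519). Between the populations, averaged, Itgae fell and Tgfbi, a secreted matrix protein gene, rose (28.6% of the 7, against 3.63% of all genes). The rise of Tgfbi was 1.86 ± 0.30 log2 (edgeR adjusted p = 0.00521), beside the higher macrophage marker sum whose part was not tested.

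Of 9 genes that TGF-beta is known to repress, all 9 were tested. Under anti-PD-1, averaged, 3 rose (Klrg1, Eomes, Fasl) and 1 fell (Myc). These were 44.4% against 18.3% of all tested genes in either direction, with a median of 0.23 log2. In asGM1-negative cells 33.3% passed (8.75% of all genes), with a median of 0.19 and 6 of 9 above 0. In asGM1-positive cells 22.2% passed (6.83%), with a median of 0.02 and 5 of 9 above 0. Gzmb did not pass, at -0.27 averaged (edgeR adjusted p = 0.0897), -0.07 in asGM1-negative (0.842) and -0.48 in asGM1-positive cells (0.0757). DESeq2 passed its averaged and asGM1-positive changes (adjusted p = 0.0487 and 0.022, with 23.8% and 12.1% of genes passing). The summed NK cell markers, which include Eomes, are given above, and their part in these changes was not tested. Klrg1, an inhibitory receptor of effector cells, was at 1.5 to 7.94 CPM in isotype and 8.20 to 26.6 CPM in anti-PD-1 libraries, with every anti-PD-1 library above every isotype one, and rose by 2.39 ± 0.38 log2 (edgeR adjusted p = 0.00121). Eomes, an effector and memory T-box factor, changed by 0.32 log2 in asGM1-negative (edgeR adjusted p = 0.564) and 1.06 in asGM1-positive cells (0.0496). Fasl, a death ligand, changed by 0.47 (0.0134) and -0.008 (0.984) in that order. The asGM1-positive call of Eomes ended in 14 of 19 alternative fits, and the asGM1-negative call of Fasl in 3. Averaged over populations, Eomes rose by 0.69 ± 0.20 (edgeR adjusted p = 0.035) and Fasl by 0.23 ± 0.07 (adjusted p = 0.0394). Either call ended when any 1 of 9 libraries was left out: for both genes isotype asGM1-negative replicates 1, 2 and 3, isotype asGM1-positive replicate 1, and replicates 2 and 3 of both anti-PD-1 groups, and besides these isotype asGM1-positive replicate 2 for Eomes and replicate 3 for Fasl (edgeR adjusted p = 0.0546 to 0.0929 for Eomes, 0.0547 to 0.105 for Fasl). It also ended with limma voom for Eomes (adjusted p = 0.0542) and with no expression filter for Fasl (0.0717). Without both anti-PD-1 replicate 2 libraries the adjusted p was 0.165 and 0.161. Myc, a growth factor-responsive transcription factor, fell by 0.83 ± 0.17 (edgeR adjusted p = 0.00521), from 45.9 to 104 CPM under isotype to 32.4 to 48.6 CPM under anti-PD-1. Between the populations Gzmb alone of the 9 rose on average (11.1%, against 3.63% of all genes), by 0.62 ± 0.10 (edgeR adjusted p = 0.0066, and 0.0536 without both anti-PD-1 replicate 2 libraries). With the pair block, where 8.91% of all genes passed, Klrg1 also rose between the populations (0.60 ± 0.08 averaged, edgeR adjusted p = 0.00439). In that fit Klrg1 was at 1.03 ± 0.12 under isotype (adjusted p = 0.00607) and did not pass under anti-PD-1 (0.543). Without the block its averaged difference was 0.62 (edgeR adjusted p = 0.444). Under anti-PD-1, where 4.98% of genes passed with the block, Eomes was higher in asGM1-positive cells (0.71 ± 0.13, edgeR adjusted p = 0.0226). Fasl was lower there (-0.26 ± 0.06, adjusted p = 0.0381).

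The genes most alike in pattern to the 3 members with the smallest p between the populations were found by Pearson's r of log2 CPM over the 12 libraries, among 9350 or 9351 genes. They were Penk, Gpm6b and Cd200r1 for Smad3 (r = 0.943, 0.934 and 0.913), Mier1, Cd47 and Nr4a3 for Smad7 (0.952, 0.94 and 0.934), and Smurf1, Wrap73 and Ildr1 for Tgfb3 (0.962, 0.92 and 0.917). Smurf1, itself on the list of pathway genes as a ubiquitin ligase that targets TGF-beta receptors, ranged from 25.2 to 38.1 CPM.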

How the data were processed

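Bulk RNA-seq was made from sorted cells with TRIzol and kits of the names SMARTer Ultra Low Input and TruSeq mRNA, per the labels' protocols. Per the submitters' processing notes, HISAT2 and StringTie were used with mm39; their versions, strand use and annotation are not given in the sources used here. Counts per gene were deposited by the authors as whole numbers in 1 table; whether reads were tallied or counts derived from StringTie's coverage was not stated.

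Counts were fitted with edgeR 4.0.16 (limma 3.58.1, R 4.3.3): filterByExpr by group, TMM factors 0.97 to 1.04, a mean per group over 12 libraries, robust quasi-likelihood (8 residual degrees of freedom, biological coefficient of variation 0.336) and Benjamini-Hochberg adjustment at 0.05. Averaged contrasts are the mean of both within-group contrasts. SEs are the log2 change over the root of F. Alternatives were DESeq2 1.42.0, limma voom, RLE factors, no filter, only the compared libraries, each library left out and blocks; the fit was tested on simulated counts. The 310 genes with no symbol stayed in totals and tests. No library was a copy of another in its group: chi-square over degrees of freedom between replicates was 45.4 to 126. Libraries of different groups were not compared in this way.

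Same-numbered asGM1-negative and asGM1-positive libraries of a treatment deviated together (r = 0.121 to 0.298 in all 6 pairs), which is the source of the pairing; across treatments r was -0.118 to 0.05. The members and lists were chosen with earlier results of these data known. Named were all 10 members, list genes past the threshold in any contrast, Smad4, Pmepa1, Lrrc32 and Itgae, and the genes most alike in pattern.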

Additional observations from a re-analysis of the deposited data

How the results depend on the processing

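Over all alternatives, 1309 of the values recomputed for the 10 genes kept their side of the threshold, 15 passed where the reported one had not, 16 no longer passed and 0 changed direction. A change of direction was counted only where the reported or the recomputed value passed. Values that passed in neither fit could change sign and still count as kept. Tgfbr1 between the populations under isotype, for example, was 0.11 log2 and ran from -0.346 to 0.481 with single libraries left out. For all genes named by the rule these counts were 4066, 72, 148 and 0. The number of the 10 genes passing was 2 for averaged anti-PD-1 minus isotype, 3 with DESeq2 and limma voom, 0 without both anti-PD-1 replicate 2 libraries and 0 to 3 with single libraries left out. It was 0 and became 1 with DESeq2 and with the pair block for the averaged population difference (Smad3), 1 with DESeq2 and limma voom for treatment in asGM1-negative cells (Tgfb3) and 1 with DESeq2 in asGM1-positive cells (Smad7), each 0 to 1 with single libraries left out.

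Over all genes, asGM1-positive minus asGM1-negative gave 243 calls under isotype (DESeq2 798, only the compared libraries 80, pair block 755, single libraries left out 86 to 230), 299 under anti-PD-1 (DESeq2 853, pair block 929, without both replicate 2 libraries 17, single libraries 65 to 379) and 678 averaged (1419, 1662, 284 and 413 to 823 in that order). Anti-PD-1 minus isotype gave 1633 in asGM1-negative cells (DESeq2 2756, without both replicate 2 libraries 813, single libraries 778 to 1782), 1274 in asGM1-positive cells (2264, 616 and 683 to 1276, only the compared libraries 694) and 3417 averaged (without both replicate 2 libraries 2148, single libraries 2451 to 3518). The interaction gave 0 (DESeq2 136, pair block 13). A replicate block on the number across treatments gave 254, 374, 776, 1768, 1381, 3482 and 0; the pair block cannot be estimated for treatment contrasts. The cause of these shifts was not tested, beyond fewer libraries where some were left out. Where a left-out library leaves a group with 2, the spread is pooled. Tgfb3, Dab2, Inhbb, Acvr1b and Acvr2a were near 1 CPM, where counts are fewest.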
